A study of Arabidopsis thaliana with 4 samples.

Results

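RNA polymerases IV and V are plant-specific enzymes that grew out of RNA polymerase II and share many of its subunits. Pol IV makes short transcripts that RDR2 turns into double-stranded RNA, from which small interfering RNAs are cut. Pol V makes scaffold transcripts at the target loci, to which small RNAs bound to ARGONAUTE proteins pair, and a methyltransferase then methylates the DNA there. This route is known as RNA-directed DNA methylation and silences transposons and repeats. The genes described are 10 components of it, fixed by locus: the polymerase subunit genes NRPD1, NRPE1, NRPD2, NRPD4 and NRPE5, and SHH1, RDR2, DRD1, SPT5L and IDN2. Every probe whose transcript accession leads to one of these loci was taken, which gave 12 probes among 43603 on the array. All 10 genes had a probe bright enough to be tested, among 20525 tested genes of 25347 with a probe. A single probe represented 8 of them, and NRPE1 and DRD1 had 2 probes each.

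Transcripts were measured on 4 Agilent arrays with 2 dyes. Each array held Col, the wild type, in Cy3 and seedlings of genotype vim1,2,3 in Cy5, which the series title calls a triple mutant. VIM1, VIM2 and VIM3 recognise methylated DNA, and plants use them to keep CG methylation when cells divide. All seedlings were 14 days old, were grown in days of 16 h light with 8 h dark, and were collected when the light had been on for 6 h. The design text says that the 4 arrays hold biologically independent samples, and the mutant alleles are not given in the labels used here. No array had the dyes exchanged, so an effect of the dye on a probe and an effect of the genotype cannot be told apart, and all arrays came from 1 slide, per the file headers.

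The genes named by the genotype were looked at before the others. VIM1 (AT1G57820) had ratios on the log2 scale, RNA labelled vim1,2,3 against Col, of -2.22, -2.46, -1.61 and -0.74 on arrays 1 to 4 (limma, adjusted p = 0.0254). The other VIM1 probe had -2.20, -2.56, -1.69 and -2.30, so the probes differ on array 4. VIM2 (AT1G66050) had -1.42, -1.31, 1.82 and 1.11, and VIM3 (AT5G39550) had -1.06, -1.29, 1.61 and 0.25. VIM2 and VIM3 thus went against the label on arrays 3 and 4, where the sources used here do not say whether the probes lie inside the disrupted parts. The samples are therefore named as RNA labelled vim1,2,3, and each member or gene of the related lists that passes the test is also given without those arrays. The median spot signal per array was 640 to 1280 for Col and 953 to 1730 for RNA labelled vim1,2,3. Of the markers of green tissue, 5 of 5 were tested, of flower 4 of 4, of root 4 of 7, of pollen 1 of 2 and of seed 1 of 3. Green markers are those of a photosynthesising seedling, and CRA1 and AT2S1, the storage protein genes that define seed, were too dim to be tested.

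One of the 10 genes passed the test. NRPE1, which encodes the largest subunit of Pol V and its catalytic core, fell 1.95-fold in RNA labelled vim1,2,3. IDN2, an RNA-binding protein that acts with Pol V transcripts, lay next to the threshold on the same side, at a log2 ratio of -0.75. The other 8 genes, among them NRPD1, the largest subunit of Pol IV, and RDR2, its partner polymerase, did not pass. A gene counts as higher or lower where limma's adjusted p over all tested genes is under 0.05. By that rule 1 of 10 members was lower, where 5.87% of all tested genes were, and 0 of 10 was higher, where 5.71% were. The count is close to the background and describes NRPE1, not the 10 genes as a set. With a change of at least 2-fold asked as well, 0 members were lower and 0 higher, against 2.13% and 3.22% of all genes. At an unadjusted p under 0.05 limma had 3 members lower (18.2% of all genes) and 1 higher (15.1% of all genes). The median log2 ratio of the members was -0.30, where that of all tested genes was -0.05.

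**Figure D1:**
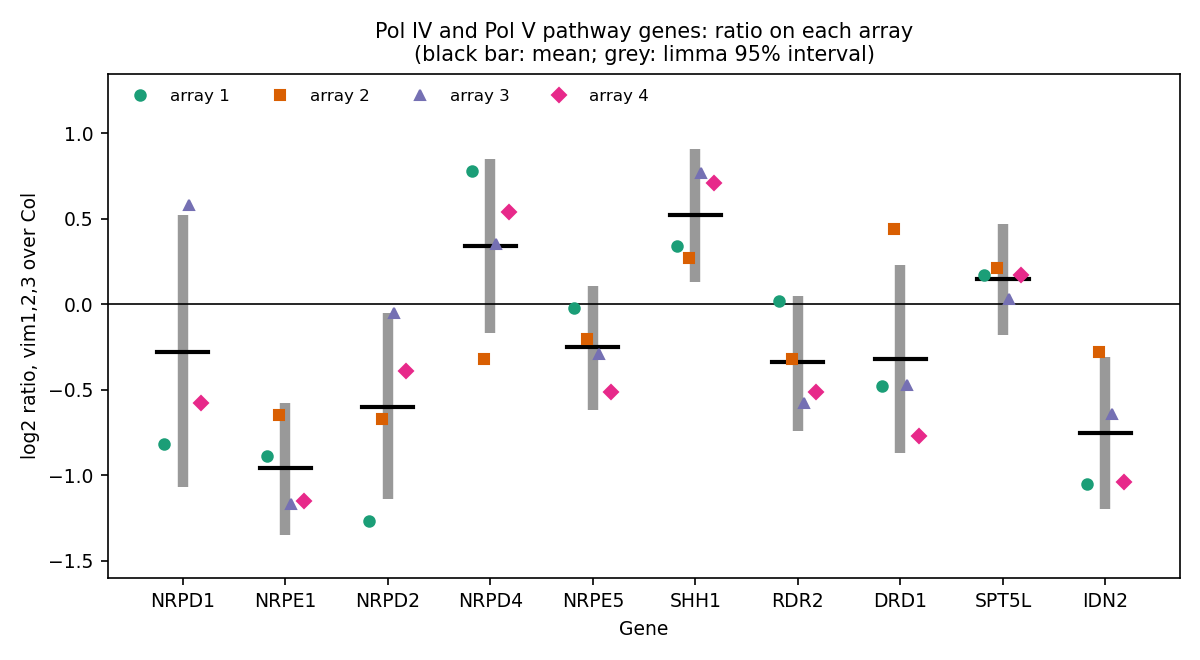
Ratios of the 10 genes on the log2 scale, RNA labelled vim1,2,3 against Col, with 1 point an array, the mean as a black bar and limma's 95% interval in grey. All 4 points of NRPE1 lie between -1.17 and -0.65, while the 3 points of NRPD1 run from -0.82 to 0.58 and array 2 has none.

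The largest subunits set the identity of each polymerase. NRPE1 (AT2G40030) had log2 normalised intensities of 11.31, 11.32, 12.39 and 11.26 in Col on arrays 1 to 4 for its brighter probe, A_84_P830968. RNA labelled vim1,2,3 had 10.42, 10.67, 11.22 and 10.12 on the same arrays. Each of these 4 values lay below that of Col on its array, and the highest of them lay just below the lowest of Col. Groups with no overlap on the lower side were found for 7.63% of all tested genes and on the higher side, where no member had them, for 6.87%. The ratios were -0.89, -0.65, -1.17 and -1.15, a mean of -0.96 ± 0.25 (SD, n = 4, limma, 95% interval -1.35 to -0.58, adjusted p = 0.0241). This change is the base of most of what follows, and a mean ratio as low or lower was found in 3.21% of tested genes.

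The second NRPE1 probe, A_84_P575754, gave log2 intensities of 10.72, 10.92, 9.65 and 10.44 in Col and of 9.59, 10.15, 9.12 and 9.26 in RNA labelled vim1,2,3. Here too each array showed less signal in RNA labelled vim1,2,3, although the groups overlapped because Col was low on array 3. Its mean ratio was -0.90 ± 0.31 (SD, n = 4, limma over all probes, adjusted p = 0.027), from single ratios of -1.13, -0.77, -0.53 and -1.18. On array 3 the NRPE1 probes disagreed in level. The brighter probe had its highest levels there (12.39 in Col and 11.22 in RNA labelled vim1,2,3), and the second probe its lowest (9.65 and 9.12). Their ratios on array 3 were -1.17 and -0.53, so the size of the fall on that array is uncertain. The probes of 1 gene are measured on the same RNA and are not replicates of each other. In the fit over single probes, 3 of 11 tested member probes were lower, both NRPE1 probes and that of IDN2, where 5.99% of all tested probes were. No member probe was higher in the same limma fit, where 8.21% of all probes were, and 1, that of SHH1, was higher at an unadjusted p under 0.05.

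**Figure D2:**
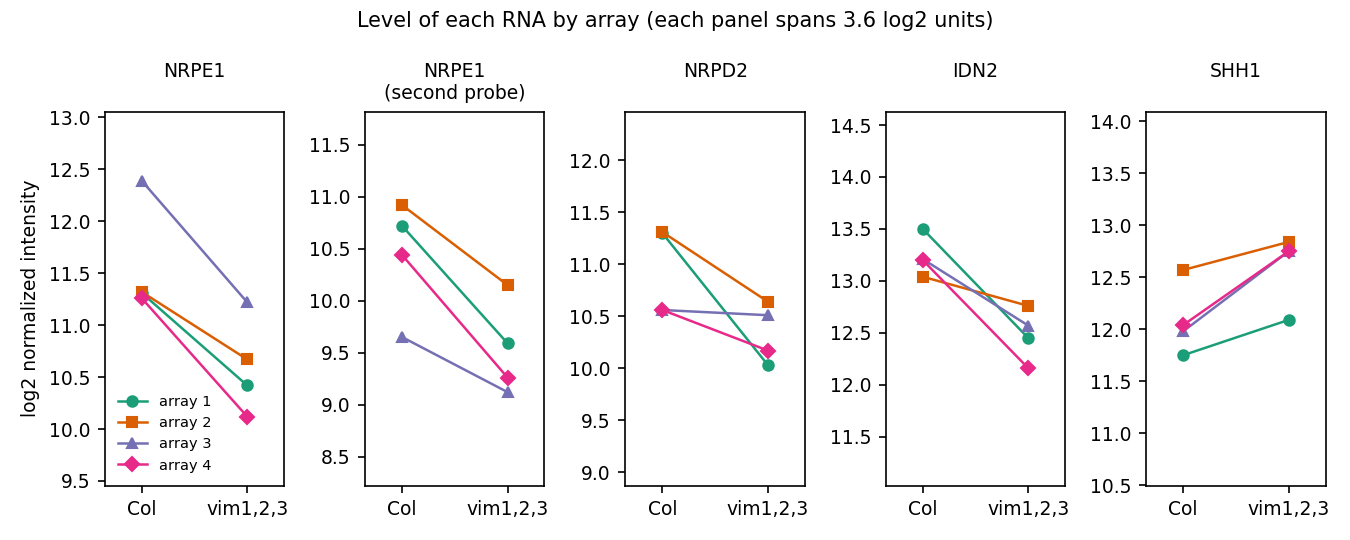
Log2 normalised intensity of Col and of RNA labelled vim1,2,3, joined by array, for both NRPE1 probes, NRPD2, IDN2 and SHH1. Every line of the NRPE1 probes, of NRPD2 and of IDN2 slopes down, that of NRPD2 on array 3 hardly at all, and every line of SHH1 slopes up.

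The NRPE1 call depended on which arrays entered and on the pairing within them. Without array 1, 3 or 4 the ratio was -0.99, -0.89 or -0.90 and the adjusted p 0.0729, 0.132 or 0.101, while without array 2 it was -1.07 (adjusted p = 0.0246). Over all tested genes the lower calls of limma fell from 1205 to 216, 32 or 58 without array 1, 3 or 4. Such a loss is thus not particular to NRPE1. Without arrays 3 and 4 together, where VIM2 and VIM3 went against the label, the ratio was -0.77 and the call was lost (limma, adjusted p = 0.419). In that fit limma called 0 of all tested genes lower, so losing a lower call there says nothing particular to the gene, here or below. With the channels taken as unpaired samples, without the replicate block that the shared array gives, the mean stayed at -0.96 and the adjusted p was 0.134. The ratio was below 0 in 17 of 17 alternative settings, from -1.21 to -0.77, and the call was kept in 12.

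NRPD1 (AT1G63020) was the dimmest member, with spot signals of 208, 180, 252 and 160 in Col and of 208, 386, 544 and 160 in RNA labelled vim1,2,3. The scanner software marked the spot of array 2 as uneven, so the fit dropped that array. On the 3 arrays left, its signal in RNA labelled vim1,2,3 cleared the background on 1 only. The ratios of arrays 1, 3 and 4 were -0.82, 0.58 and -0.58, which gives -0.28 ± 0.75 (SD, n = 3, limma, 95% interval -1.07 to 0.52, adjusted p = 0.58). The arrays disagreed in sign, and the interval reaches past a 2-fold fall. The authors' series matrix lists NRPD1 on arrays 2 and 3 alone, at 1.13 and 0.76, so its mean of 0.94 (limma, adjusted p = 0.0922) has the opposite sign. The SD of NRPD1 was higher than that of 86.8% of tested genes and its signal higher than that of 6.39%.

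The remaining subunits are shared or belong to 1 polymerase. NRPD2 (AT3G23780), the second-largest subunit in both enzymes, had Col levels of 11.30, 11.31, 10.56 and 10.56 on the log2 scale and levels of 10.03, 10.64, 10.51 and 10.17 in RNA labelled vim1,2,3. RNA labelled vim1,2,3 was below Col on 4 of 4 arrays, but by very different amounts, and the groups overlapped. The ratios were -1.27, -0.67, -0.05 and -0.39 (-0.60 ± 0.52, SD, n = 4, limma, 95% interval -1.14 to -0.05, adjusted p = 0.124). Array 1 weighed most, and without it the mean was -0.37. NRPD4 (AT4G15950), the fourth subunit of both enzymes, had ratios of 0.78, -0.32, 0.35 and 0.54 (0.34 ± 0.47, limma, n = 4, adjusted p = 0.305). NRPE5 (AT3G57080), the form of the fifth subunit found in Pol V, had -0.02, -0.20, -0.29 and -0.51 (-0.25 ± 0.20, limma, n = 4, adjusted p = 0.281). Its 95% interval of -0.62 to 0.11 leaves out a 2-fold change in either direction.

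SHH1 and RDR2 act with Pol IV. SHH1 (AT1G15215) reads methylated histone H3 and brings Pol IV to its loci. Its log2 level was 11.75, 12.57, 11.98 and 12.04 in Col and 12.09, 12.84, 12.75 and 12.75 in RNA labelled vim1,2,3. SHH1 was higher in RNA labelled vim1,2,3 on each array, though the groups overlapped. The ratios of 0.34, 0.27, 0.77 and 0.71 averaged 0.52 ± 0.26 (SD, n = 4, limma, 95% interval 0.13 to 0.91), and the adjusted p of 0.0806 missed the threshold. SHH1 did not pass in any of 17 alternative settings, with adjusted p from 0.0582 to 0.622. RDR2 (AT4G11130), the RNA-dependent RNA polymerase that copies Pol IV transcripts, had ratios of 0.02, -0.32, -0.58 and -0.51 (-0.34 ± 0.27, limma, n = 4, adjusted p = 0.192).

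DRD1, SPT5L and IDN2 act at Pol V. DRD1 (AT2G16390) is a chromatin remodeller of the SNF2 kind that Pol V needs to transcribe. Its tested probe had ratios of -0.48, 0.44, -0.47 and -0.77 (-0.32 ± 0.52, limma, n = 4, adjusted p = 0.362), so array 2 went the other way. Its other probe was not well above background in either RNA on any array and was not tested. SPT5L (AT5G04290), an elongation factor relative that binds ARGONAUTE4, varied least, with ratios of 0.17, 0.21, 0.03 and 0.17 (0.15 ± 0.08, limma, n = 4, 95% interval -0.18 to 0.47, adjusted p = 0.488). Its mean was -0.04 with median centring of the arrays in place of loess, so no direction can be given. The SD of SPT5L was higher than that of 1.88% of tested genes.

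IDN2 (AT3G48670) binds double-stranded RNA with overhangs and is needed for new methylation. Its log2 level was 13.50, 13.04, 13.21 and 13.20 in Col and 12.45, 12.76, 12.57 and 12.16 in RNA labelled vim1,2,3. The groups did not overlap, as for NRPE1. These were 2 of the 9 members with 4 arrays, both on the lower side, where 7.63% of all tested genes had such groups. The other 7 overlapped. The ratios of -1.05, -0.28, -0.64 and -1.04 averaged -0.75 ± 0.37 (SD, n = 4, limma, 95% interval -1.2 to -0.31, adjusted p = 0.0504). That p lies just above 0.05, and it went under 0.05 in 4 of 17 alternative settings and stayed above in 13. The 4 were median centring (0.0347), both channels required above background (0.0456), array weights (0.0287) and array 2 left out (0.0358). It was 0.145, 0.168 or 0.159 without array 1, 3 or 4, and 0.0642 without the replicate block. Without arrays 3 and 4 it was 0.464, at a ratio of -0.66, and over the 17 settings the ratio ran from -0.91 to -0.65.

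**Figure D3:**
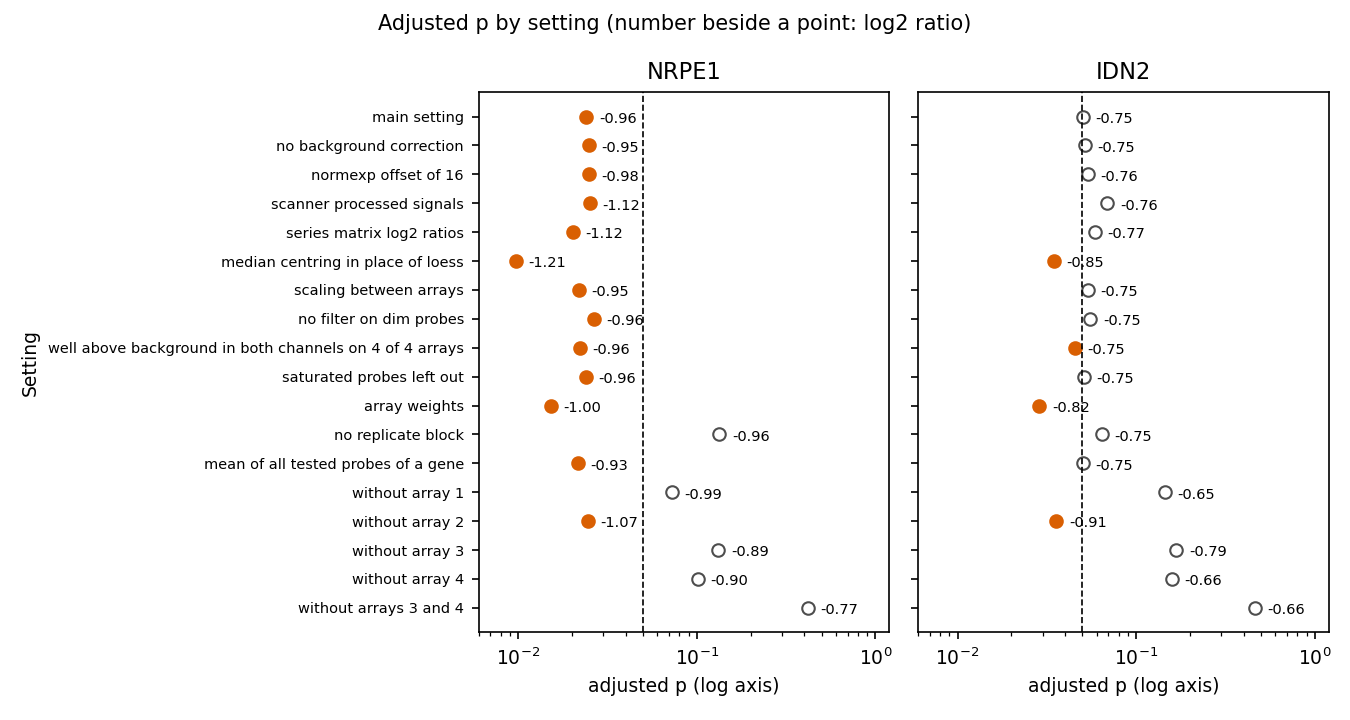
Adjusted p from limma on a log axis for NRPE1 and IDN2 under the main setting and 17 others, with filled points under 0.05 (dashed line) and the log2 ratio beside each point. NRPE1 moved past the line when arrays 1, 3 or 4 were left out or the pairing was dropped, and IDN2 sat on both sides of it.

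Across the 9 members with 4 arrays, 4 were below 0 on each of them (NRPE1, NRPD2, NRPE5 and IDN2), where 22.5% of all tested genes were. Another 2 were above 0 on each (SHH1 and SPT5L), where 18.5% of all genes were, and 3 had both signs. The members' median was -0.25, -0.28, -0.17 and -0.51 on arrays 1 to 4, beside -0.04 or -0.05 for all genes on each. For 6 of the 10 members limma's interval left out a 2-fold change in both directions, and those of NRPD1, NRPE1, NRPD2 and IDN2 did not. The share of all genes with such intervals is not given here, so this count describes single genes and not the set.

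NRPE1 was then set against each other member on the same arrays, since it had the smallest p. Its ratio was lower than that of NRPD4, NRPE5, SPT5L, RDR2, SHH1 and DRD1 on 4 of 4 arrays, with mean differences of -1.30, -0.71, -1.11, -0.62, -1.48 and -0.64. With 4 arrays an exact two-sided sign permutation cannot go below p = 0.125, which each of these 6 reached (adjusted over 9 pairs, 0.188). NRPE1 and IDN2 differed by -0.21 ± 0.30 (SD, n = 4, exact permutation p = 0.375), and NRPE1 and NRPD2 by -0.37 ± 0.69 (exact permutation p = 0.5). Against NRPD1 the difference was -0.79 ± 0.86 on 3 arrays, where the smallest exact p is 0.25. No pair could pass in this design. NRPE1, picked by its p, also had the lowest mean ratio of the 10, so the choice itself favours negative differences. These values describe the arrays and leave untested whether NRPE1 changed differently from the other members.

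The 3 genes whose ratios lay closest to those of NRPE1 over the 4 arrays were AT4G31140, AT3G46870 and SNL5 (AT1G59890). Their root mean square differences from NRPE1 were 0.0482, 0.0814 and 0.0909 on the log2 scale, and their mean ratios -0.99, -0.90 and -0.89. With 4 points a gene, such closeness is a description only.

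Genes related to these components were read from 4 lists, 3 of polymerase and pathway genes and 1 of paralogues that work outside the pathway. They hold 57 genes, of which 54 were tested. The list of Pol II and shared subunits also holds NRPE3B, NRPD7, NRPE7 and NRPE9B, forms named for Pol IV or Pol V. Of its 18 genes 1 was higher and 1 lower, where 5.71% and 5.87% of all tested genes were, with a median of 0.09. At an unadjusted p under 0.05 limma had 4 higher and 1 lower, where 15.1% and 18.2% of all tested genes were. NRPB8A (AT1G54250), a subunit shared by several polymerases, rose 1.97-fold, from ratios of 1.08, 0.57, 1.05 and 1.22 (0.98 ± 0.29, SD, n = 4, limma, adjusted p = 0.0254). It lost its call without arrays 3 and 4 (0.82, adjusted p = 0.419). The call of NRPB12 (AT5G41010) came from a probe saturated in both RNAs on all 4 arrays, so its ratio of -0.69 (limma, adjusted p = 0.0322, and 0.419 without arrays 3 and 4) does not measure a change and no fold is given. NRPB1 and NRPB2, the largest subunits of Pol II, were at 0.00 and -0.25 with intervals of -0.41 to 0.40 and -0.62 to 0.13.

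Of 9 tested genes of small RNA production and loading, 0 were called by limma, with 2 lower and 0 higher at an unadjusted p under 0.05 and a median of -0.34. The smallest p were those of CLSY1 (-0.65 ± 0.38, n = 4, limma, adjusted p = 0.0698) and CLSY4 (-0.47 ± 0.40, limma, adjusted p = 0.148), chromatin remodellers that work with Pol IV. In RNA labelled vim1,2,3 the CLSY1 signal cleared the background on 2 of 4 arrays and that of CLSY4 on 1. AGO4, which carries the small RNAs, was at -0.34 (limma, adjusted p = 0.164). DCL3, which cuts them, was at -0.57 ± 0.81 (SD, n = 4, limma, adjusted p = 0.248), with both signs among its arrays. Of the 9 genes 6 were below 0, and AGO6 (0.19), AGO9 (0.35) and SHH2 (0.23) were above. Of 16 tested genes of Pol V targeting and its scaffold, 0 were called by limma, with 1 lower and 1 higher at an unadjusted p under 0.05 and a median of -0.05. FDM1, a relative of IDN2, was at 0.58 ± 0.35 (n = 4, limma, adjusted p = 0.0801), but its other probes averaged -0.17 and -0.07. DRM3, a methyltransferase relative, was at -0.53 ± 0.35 (limma, n = 4, adjusted p = 0.102), and DRM2, the methyltransferase of the pathway, at -0.09. DMS3 and RDM1, which form a complex with DRD1, were at -0.35 and 0.22.

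Of 11 tested paralogues that work outside the pathway, 1 was lower and 0 higher, where 5.87% and 5.71% of all tested genes were. At an unadjusted p under 0.05 limma had 2 lower and 1 higher, where 18.2% and 15.1% of all tested genes were. The list's median was -0.33, with 10 of 11 below 0, as were 11114 of all 20525 genes. RDR3 (AT2G19910), an RNA-dependent RNA polymerase gene, had ratios of -0.70, -0.63, -0.92 and -0.77 (-0.75 ± 0.12, SD, n = 4, limma, adjusted p = 0.03). Its probe was tested through Col, where it was well above background on 4 arrays, against 2 of 4 in RNA labelled vim1,2,3, so the size of the difference is uncertain. It was not tested where both channels had to be above background, and without arrays 3 and 4 its call was lost (-0.66, adjusted p = 0.423). RDR1, which acts in antiviral silencing, was at 0.74 ± 0.47 (limma, n = 4, adjusted p = 0.0687). The paralogue NRPD2B (AT3G18090) had a mean of -0.27 ± 1.2 (SD, n = 4). How far the probes of NRPD2 and NRPD2B bind each other's transcripts was not tested, as the probe sequences were not used here.

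**Figure D4:**
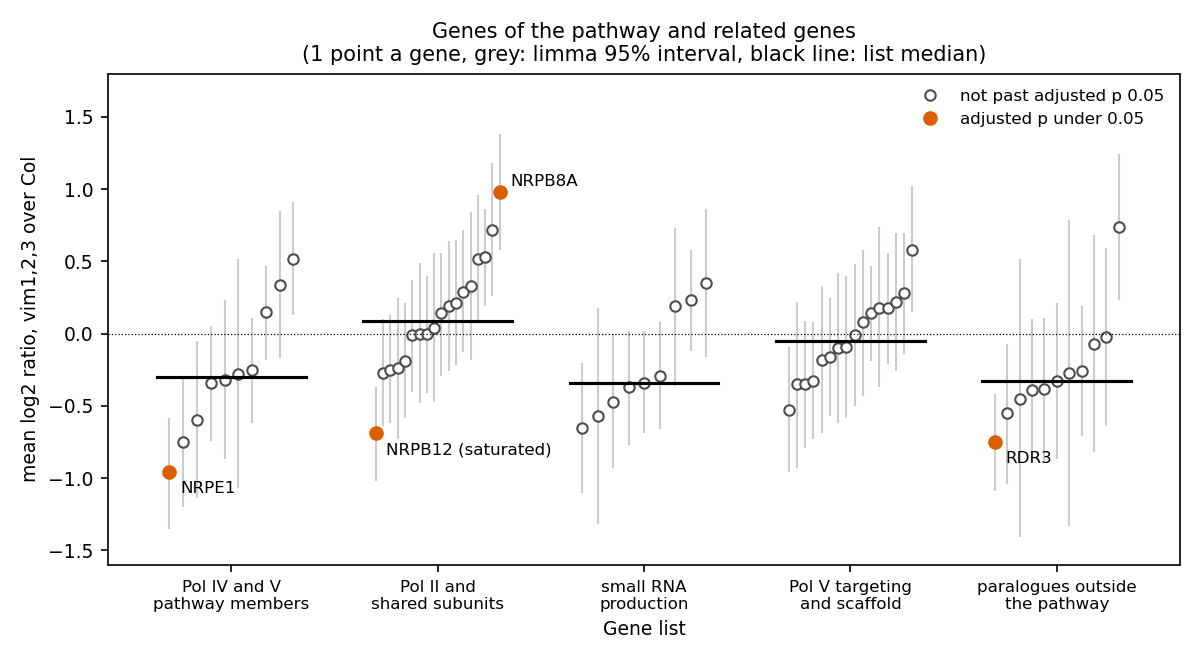
Mean ratio on the log2 scale, RNA labelled vim1,2,3 against Col, for the 10 members and 4 lists of related genes, with limma's 95% interval in grey and the list median as a black line. The filled points are NRPE1, NRPB8A, NRPB12 (a saturated probe) and RDR3, and every list spreads to both sides of 0.

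Many silencing genes are known to be more active in dividing cells, so markers of these were read beside the members. Of 8 tested markers of dividing cells and the shoot meristem, 0 were called by limma, with 1 lower and 2 higher at an unadjusted p under 0.05. Their summed normalised intensity was 10700 to 17600 in Col and 8840 to 15100 in RNA labelled vim1,2,3, ranges that overlap. The lower was STM, a meristem gene, at -0.81 (limma, adjusted p = 0.0509), with its other probe at -0.61 (limma over all probes, adjusted p = 0.175). The 2 higher were CLV3 at 0.74 (limma, adjusted p = 0.0766) and KN at 0.53 (limma, adjusted p = 0.0954). Of 4 flower markers 2 were lower, PI (-2.20, limma, adjusted p = 0.0113) and AG (-0.92, adjusted p = 0.0449), where 5.87% of all tested genes were. Both were well above background on 4 arrays in Col and on 2 in RNA labelled vim1,2,3, so the size of these differences is uncertain. The other AG probe was at -0.60 and not called (limma over all probes, adjusted p = 0.106). AP3 (-0.60) and SEP3 (-0.29) were not called by limma, and both were above 0 on array 4. The list's summed intensity was 3740 to 8080 in Col and 1750 to 5930 in RNA labelled vim1,2,3. Of 5 green markers 2 were lower, RBCS1A and GAPA, both on probes saturated in RNA labelled vim1,2,3 on 4 of 4 arrays, so that these ratios do not measure a change. The probes of GAPA with no saturated spot averaged 0.18, 0.13 and 0.16, and those of RBCS1A 0.41, 0.49, 0.53 and 0.29, none of them called by limma over all probes. Of 4 tested root markers 0 were called by limma, with 0 lower and 1 higher at an unadjusted p under 0.05. The untested EXP7 and RHD6 were well above background on 2 of 4 arrays in each RNA, and brighter on arrays 3 and 4. Their log2 levels in Col were 6.85, 6.51, 10.30 and 9.34, and 7.13, 7.04, 8.40 and 8.91. The tested SCR did not share this split (12.99, 13.30, 12.27 and 12.65 in Col). Whether the arrays differ in root content was not tested. The part of these cells in the NRPE1 ratio was not tested. In whole seedlings, fewer cells of a type and less RNA per cell cannot be told apart.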

How the data were processed

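Spots had been read by Agilent's Feature Extraction software, version 10.7.3.1. The deposited intensities are median pixel values of each spot and its surround, per the file headers. The deposited processed intensities had been background-subtracted and dye-normalised, and the LogRatio column is the log10 of processed red over green, per the file headers. Log2 ratios make up the deposited series matrix, and they followed the scanner's ratios of the same array (correlation 0.998 to 0.999). The sources used here do not give how it was normalised and centred. Its column medians were -0.09, 0.01, -0.04 and -0.03.

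Median intensities were corrected with normexp (offset 50) and normalised by loess within each array, in limma 3.58.1 under R 4.3.3 (package data.table, version 1.17.8, and jsonlite 2.0.0). Control spots (1417 of 45220) had weight 0, and spots marked as outliers were left out. Levels given per RNA were further made comparable between arrays (Aquantile), as levels of 1 probe only. Of 43603 probes, 34185 were named through their accession in the RefSeq table of TAIR10.1. The arrays' header names another build, so coordinates are left out. Testing asked that a probe be well above background, in either channel, on 3 of 4 arrays, and the brightest tested probe stood for a gene. Ratios were tested with lmFit and eBayes, adjusted by Benjamini-Hochberg across the 20525 genes, and the fit was tested on simulated data. Each ratio pairs the RNAs on 1 array, which makes the array the replicate block.

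The members and lists were chosen with earlier results of these data known. Named were all members, the called genes of each list (up to 4 by p), or else the 2 with the smallest p, and the 3 genes nearest to the member with the smallest p. Other genes named were chosen for their role, after their values were seen. The number of arrays limits the precision.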

Additional observations from a re-analysis of the deposited data

How the results depend on the processing

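The limits of these results are the 4 arrays, the single dye orientation and, for NRPD1, CLSY1, CLSY4, RDR3, PI and AG, a signal close to background. Of the members, 1 was lower in the main setting. The count was 2 with median centring, 2 with both channels required above background on all arrays, 2 with array weights, 0 without the replicate block, 0 without arrays 3 and 4, 0 with a 2-fold change asked as well, and 0 to 2 with 1 array left out. The count of lower member probes, 3, was 0 without the replicate block, 0 without arrays 3 and 4, 0 with a 2-fold change asked and 0 to 3 with 1 array left out. Of the 4 related lists together, 2 genes were called lower (RDR3, a paralogue outside the pathway, and NRPB12, on a saturated probe) and 1 higher (NRPB8A). The lower count was 1 with the series matrix, 1 with both channels above background, 1 with saturated probes left out (NRPB12 being the one lost), 1 without the replicate block, 0 without arrays 3 and 4, 0 with a 2-fold change asked and 0 to 1 with 1 array left out. The higher count was 3 with array weights, 0 without the replicate block, 0 without arrays 3 and 4, 0 with a 2-fold change asked and 0 to 2 with 1 array left out. Over all genes, 1205 were lower and 1173 higher. Lower were 2434 with median centring, 303 without the replicate block, 0 without arrays 3 and 4, 437 with a 2-fold change asked and 32 to 1100 with 1 array left out (216, 32 and 58 without arrays 1, 3 and 4). Higher were 772 with the scanner's processed signals, 474 without the replicate block, 53 without arrays 3 and 4, 660 with a 2-fold change asked and 180 to 1369 with 1 array left out. Fits with fewer arrays have less power by construction, and the cause of the other shifts was not tested. Of all calls, 49.3% were higher in the main setting, 37.9% with processed signals and 30.1% with median centring, which shifted the all-gene median by -0.11. Relative to that median, NRPE1 was at -1.05 there and at -0.91 in the main setting, and IDN2 at -0.69 and -0.70. The sign turned for NRPD1 with the series matrix (0.94) and for SPT5L with median centring (-0.04), and for no other member in the 17 settings.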

Other observations

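The genes directly beside the 10 members in gene order were read as well, after the members' values were known. Of 20 such neighbours, 12 were tested, with 0 lower and 1 higher, where 5.71% of all tested genes were higher. The one was AT3G48660, which lies beside IDN2. Its brighter probe had ratios of 1.37, 1.48, 2.25 and 2.31 on arrays 1 to 4, a 3.61-fold rise (1.85 ± 0.50, SD, n = 4, limma, adjusted p = 0.00973), while IDN2 was below 0 on each array. The other probe of AT3G48660 did not move with it, at 0.13, -1.04, 0.25 and 0.49, so the probes disagree on the gene. With the mean of both probes the ratio was 0.90 (limma, adjusted p = 0.054). The call was also lost without array 3 (adjusted p = 0.0751), without array 4 (0.058) and without both (1.42, adjusted p = 0.3). The neighbours of NRPE1, NRPD2 and SHH1 that were tested lay at -0.20 (AT2G40020), -0.89 (AAE16, adjusted p = 0.0531), -0.48 (ABCG35) and 0.01 (CCMH), none of them called by limma.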
